A study of Mus musculus with 20 samples.

Results

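The genes described here are 9 members of the PI3K, Akt and mTOR pathway: Pik3ca, Pik3cb, Pik3r1, Inpp4b, Akt1, Akt2, Tsc1, Tsc2 and Mtor. They were found as the rows of the expression table whose platform annotation gives exactly 1 of these symbols. Each of the 9 had exactly 1 such row, so they make up 9 of the 30142 genes measured on the 20 arrays. All arrays came from mice of the FVB/N background that carry floxed alleles, that of Rb1 among them, and that lack p107 (Rbl1). The groups were normal bladder without Cre (5 arrays, numbered 1, 2, 4, 5 and 6 in the labels), bladder inoculated with an adenovirus coding for Cre recombinase, which gave tumours (7 arrays), and such bladders from mice treated with palbociclib, a Cdk4/6 inhibitor, plus cisplatin (CDDP) (3 arrays). Palbociclib was given at 150 mg/kg daily for 28 days and CDDP at 6 mg/kg once a week. The other groups were metastases (4 arrays) and a lone array titled PALBO-MET, whose title gives the only word on its treatment. The adenovirus delivers Cre to any cell it enters in the bladder, and controls and tumours alike lack p107. The age and sex of the mice and the organ of the metastases are not given in the sources used here.

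Class I PI3 kinases are pairs of a catalytic and a regulatory subunit that phosphorylate a membrane lipid when a growth factor receptor is active. The lipid product draws Akt kinases to the membrane, where they are activated; lipid phosphatases such as Inpp4b remove phosphates from the products. Akt phosphorylates Tsc2, which releases the brake that the Tsc1-Tsc2 complex sets on the small GTPase Rheb, and Rheb activates the mTOR kinase, which drives protein and lipid synthesis. The pathway is often altered in human bladder cancer, by activating mutation of the alpha catalytic subunit among other events. Most of this control acts on lipids and phosphorylation, and the arrays measured RNA only.

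No difference between groups passed the test for any of the 9 genes. In limma's moderated test with Benjamini-Hochberg adjustment over 30142 genes, 0 of 45 gene and comparison pairs had an adjusted p under 0.05, and 0 of 45 had an unadjusted p under 0.05. An exact permutation test over arrays, 2-sided, also gave 0 of 45 with p under 0.05, its smallest p being 0.143. The members' counts have to be read against the whole table. For tumour against normal bladder, 0 of 9 members had an adjusted p under 0.05, as had 0% of all genes, and 0 of 9 had an unadjusted p under 0.05 against 4.25% of all genes. For treated against tumour bladder the member counts were again 0 and 0, with 0% and 0.342% of all genes. For metastasis against tumour they were 0 and 0, with 0% and 5.79% of all genes. Treated against normal bladder gave 0 and 0 beside 0% and 0.358%, and metastasis against normal bladder 0 and 0 beside 0% and 6.91%. The lowest and highest arrays of the compared groups overlapped for all 9 genes in all 5 comparisons. Across all genes the share without overlap was 0.166% between tumour and normal bladder, 0.129% between treated and tumour bladder, 0.504% between metastasis and tumour, 0.65% between treated and normal bladder and 2.85% between metastasis and normal bladder. Counts of 0 among 9 are therefore near the background.

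The sizes of the differences were small as well, within intervals that still allow changes of some size. The median log2 difference of the 9 genes was 0.015 between tumour and normal bladder (0.012 over all genes) and 0.047 between treated and tumour bladder (-0.023 over all genes). Between metastasis and tumour it was 0.074 (-0.026), between treated and normal bladder 0.045 (-0.009) and between metastasis and normal bladder 0.063 (-0.013). Rises and falls cancel in these medians. With the sign dropped, the medians were 0.046, 0.054, 0.082, 0.071 and 0.088 in the same order (0.102, 0.087, 0.125, 0.082 and 0.135 over all genes). Apart from Pik3r1, the 95% confidence intervals lay within -0.40 and 0.54 on the log2 scale over all comparisons. A p that misses the threshold does not show that the levels were equal. The labels do not say that the arrays of a group came from separate animals, so the p-values measure the spread between these samples. In whole tissue, fewer cells of a type and less RNA per cell cannot be told apart.

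**Figure D1:**
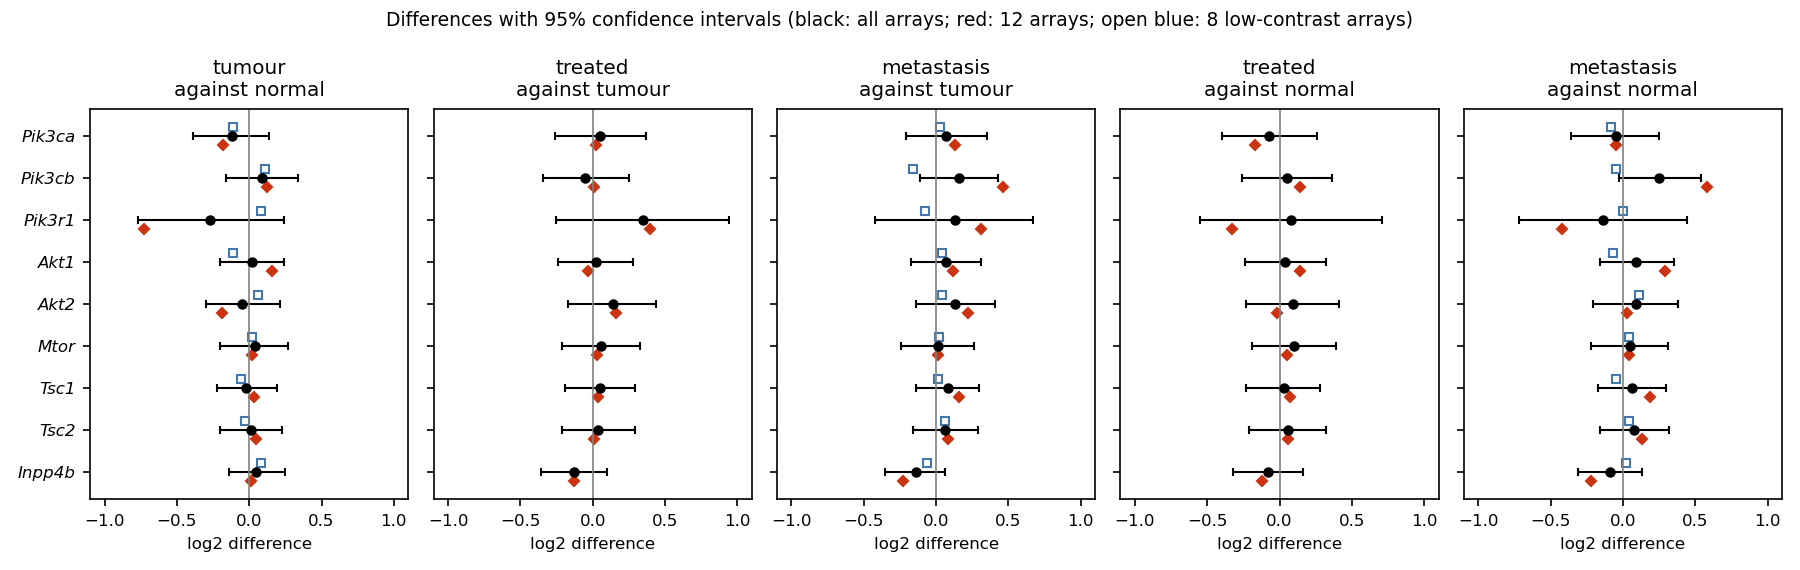
Log2 difference (x axis) of each of the 9 genes (y axis) in the 5 comparisons. Black points are limma estimates over all arrays with 95% confidence intervals, red diamonds the estimates without the 8 low-contrast arrays and open blue squares those within them. Every black interval crosses 0, and the red and blue estimates lie farthest apart for Pik3r1 in tumour against normal (-0.73 and 0.08) and for Pik3cb in the metastasis comparisons.

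The arrays were divided into 2 kinds. On 8 arrays (normal 4, 5 and 6, tumour 3, 4 and 5, metastasis 3 and 4) the spread among dim rows was wide, with SDs of 0.336 to 0.367. The other 12 ran from 0.228 to 0.329 (tumour 1), so the SD alone left a narrow gap. Deviations of the 8 from the row means correlated with those of any other array at no more than 0.21. The best partner of each of the other 12 arrays was at 0.26 (treated bladder 1) to 0.809. These 8 are called low-contrast arrays here, and the main differences are also given without them and within them. Without them 2 normal bladders, 4 tumours, 3 treated bladders and 2 metastases remain. These 2 normal bladders, 1 and 2, are the pair at 0.809, and whether they came from separate animals is not given. Within the low-contrast arrays there are 3 normal bladders, 3 tumours and 2 metastases. The treated group held no low-contrast array. The bladder label was checked against uroplakins, the proteins of the urothelial surface: Upk1a was at 8.04 to 12.28 in normal bladder and at 9.20 to 10.89 in treated bladder. Upk1a was at 14.18 on tumour 7 but at 6.01 and 5.48 on tumours 2 and 6, and at 4.07 on the PALBO-MET array. Metastases 1 and 2 were at 5.46 and 5.99, but metastases 3 and 4 at 8.12 and 7.51, level with the low-contrast normal bladders (8.07, 8.34 and 8.04). On the low-contrast arrays Upk1a therefore did not set bladder apart from metastasis. Xist, the RNA that silences an X chromosome in female cells, was at 11.74 and 11.71 on normal bladders 1 and 2. It was at 7.10, 6.04 and 10.05 on treated bladders 1 to 3, and between 5.43 and 5.86 on tumours 1, 2, 6 and 7 and metastases 1 and 2. The 8 low-contrast arrays lay at 6.74 to 7.19. Without the low-contrast arrays, Xist level and group therefore cannot be told apart in tumour against normal or metastasis against normal. The part of Xist in the other results was not tested. Rb1 was at 6.13 ± 0.21 (SD, n = 5) in normal bladder and 5.96 ± 0.34 (SD, n = 7) in tumours, and Rbl1 at 6.49 ± 0.22 (SD, n = 5) and 6.62 ± 0.30 (SD, n = 7). Rbl1 was highest on metastasis 1 (8.30) and treated bladder 3 (7.65), although all mice are labelled as lacking p107. The position of these probes within either gene is not known here, so the levels check no label. All levels in the text are log2 expression as deposited; the highest exceed 16, the ceiling of a 16-bit scan, and how these arose is not given in the sources used here.

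**Figure D2:**
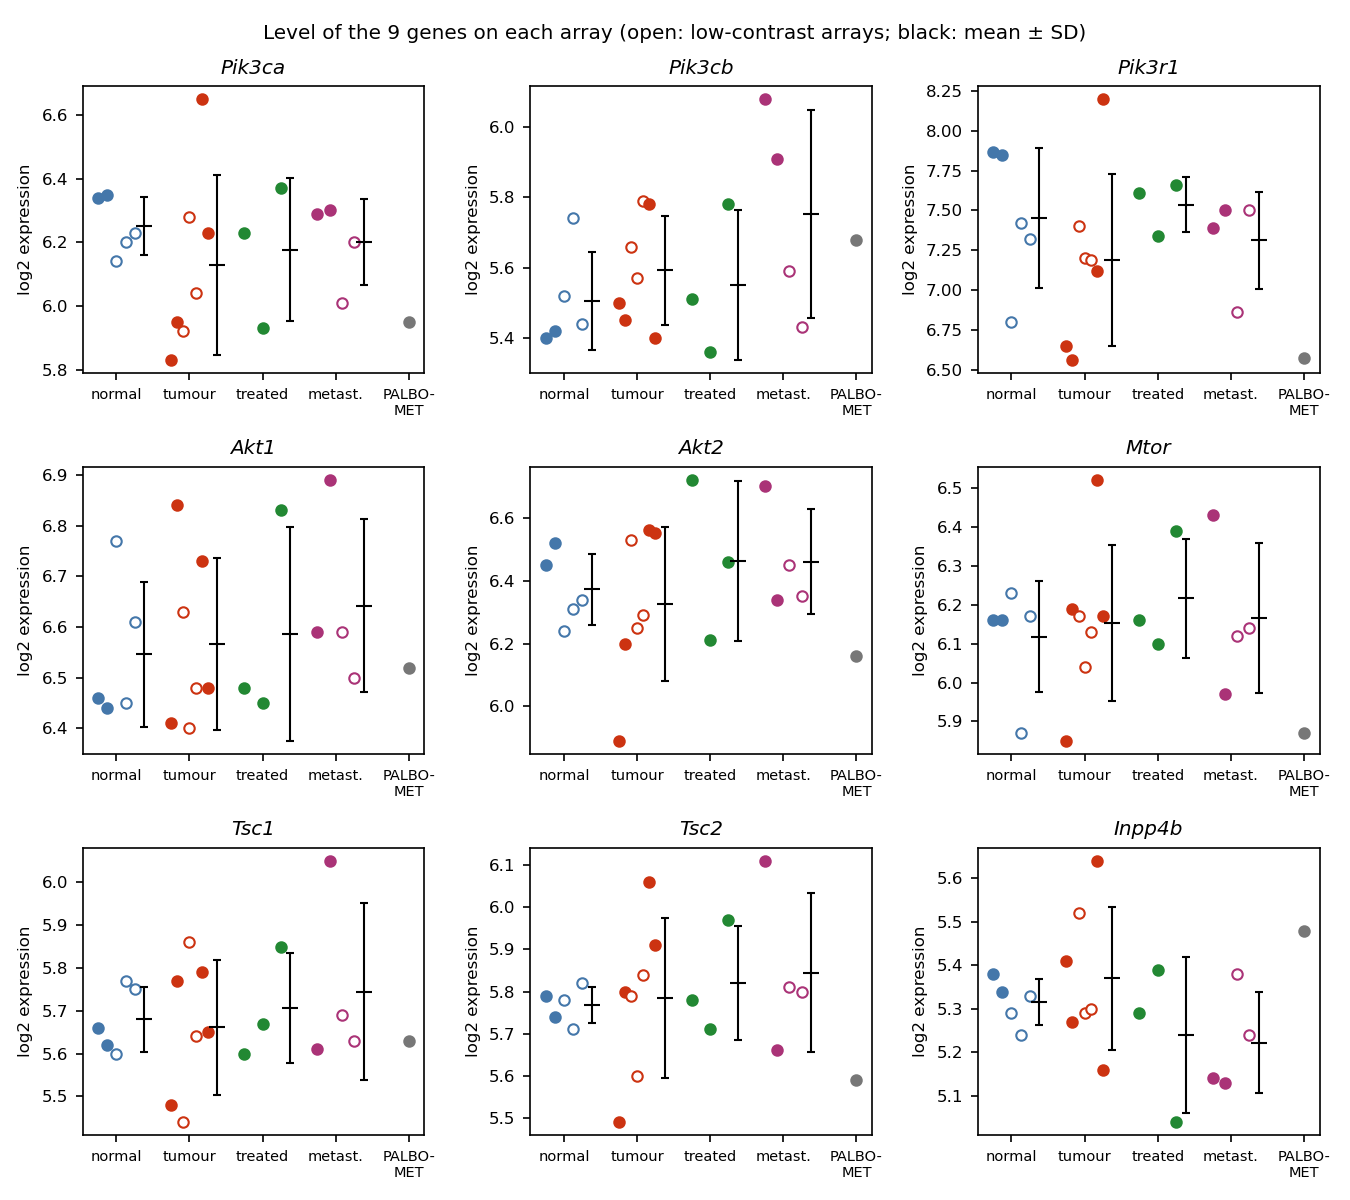
Log2 expression (y axis) of each of the 9 genes on each array, by group (x axis). Filled points are the 12 other arrays, open points the 8 low-contrast arrays, and black bars the mean and SD of a group. The groups overlap for every gene, and the tumours spread most for Pik3r1, from 6.56 to 8.20.

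Pik3ca encodes p110 alpha, the catalytic subunit that receptor tyrosine kinases mainly use. In normal bladder it was at 6.34, 6.35, 6.14, 6.20 and 6.23 on arrays 1, 2, 4, 5 and 6. The 7 tumours ran from 5.83 (tumour 1) through a median of 6.04 to 6.65 (tumour 6). Normal bladder thus lay inside the range of the tumours, which held both the lowest and the highest of the 20 values. Treated bladders 1 to 3 were at 6.23, 5.93 and 6.37, metastases 1 to 4 at 6.29, 6.30, 6.01 and 6.20, and PALBO-MET at 5.95. The group means were ordered normal bladder (6.25 ± 0.09, SD, n = 5), metastasis (6.20 ± 0.14, SD, n = 4), treated bladder (6.18 ± 0.23, SD, n = 3) and tumour (6.13 ± 0.28, SD, n = 7), and no neighbours in this order differed beyond their spread. Tumour minus normal was -0.12 (95% confidence interval -0.39 to 0.14, limma adjusted p = 0.998). It was -0.18 without the low-contrast arrays and -0.11 within them.

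Pik3cb encodes p110 beta, the catalytic subunit that also answers to G protein-coupled receptors. Metastases 1 and 2 were at 6.08 and 5.91, above every other array, whereas metastases 3 and 4 were at 5.59 and 5.43. Normal bladder was at 5.40, 5.42, 5.52, 5.74 and 5.44, and the tumours ran from 5.40 through a median of 5.57 to 5.79. Treated bladders were at 5.51, 5.36 and 5.78 and PALBO-MET at 5.68, so only metastases 1 and 2 stood outside the range of the other groups. The means rose in the order normal bladder (5.50 ± 0.14, SD, n = 5), treated bladder (5.55 ± 0.21, SD, n = 3), tumour (5.59 ± 0.16, SD, n = 7) and metastasis (5.75 ± 0.29, SD, n = 4), with no neighbours apart beyond their spread. Metastasis minus normal was 0.25 (95% confidence interval -0.03 to 0.54), with an unadjusted p of 0.0806, the smallest of the 45, and an adjusted p of 0.734 in limma; the exact permutation p was 0.143. Metastasis minus tumour was 0.16 (95% confidence interval -0.11 to 0.43, limma adjusted p = 0.887).

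The Pik3cb difference depended on the kind of array. Without the low-contrast arrays 2 metastases, 2 normal bladders and 4 tumours were left. Metastasis minus normal was then 0.58 (unadjusted p = 0.0128, limma adjusted p = 0.611), and 6.67% of all genes had an unadjusted p under 0.05 in that fit. Metastasis minus tumour was then 0.46 (unadjusted p = 0.0206, limma adjusted p = 0.862), where 5.11% of all genes had an unadjusted p under 0.05. Within the low-contrast arrays the same differences were -0.05 and -0.16. Over both kinds, metastasis minus normal was 0.29 with array weights (unadjusted p = 0.0211, limma adjusted p = 0.292). It was 0.36 without metastasis 4 (unadjusted p = 0.018, limma adjusted p = 0.645) and 0.31 without normal 5 (unadjusted p = 0.0411, limma adjusted p = 0.734). In these 3 fits 3907, 2236 and 2009 of 30142 genes had an unadjusted p under 0.05. Among the 4 metastases, macrophage markers were also highest on metastases 1 and 2. The mean of 9 of 9 measured macrophage markers was 8.72 and 7.92 on metastases 1 and 2 and 6.64 and 6.74 on metastases 3 and 4, and ran from 5.80 to 6.93 in normal bladder and from 5.93 to 7.27 in tumours. All 9 were higher on average in metastases than in tumours and in normal bladder, and 0 of the 9 passed the test. The 8 low-contrast arrays had macrophage means of 6.63 (tumour 3) to 6.93 (normal 5), whatever their group. On those arrays the mean did not set metastasis apart from bladder. The part of macrophage markers in the Pik3cb result was not tested. PALBO-MET had a macrophage mean of 8.35 with Pik3cb at 5.68, below tumours 5 and 6.

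Pik3r1 encodes p85 alpha, the regulatory subunit that binds phosphorylated receptors and holds the catalytic subunit in check until then. It varied most among the 9 genes, with an SD of 0.45 over the 20 arrays, against 0.14 to 0.20 for the other 8. Normal bladder was at 7.87, 7.85, 6.80, 7.42 and 7.32, and the tumours ran from 6.56 (tumour 2) through a median of 7.19 to 8.20 (tumour 7). Treated bladders were at 7.61, 7.34 and 7.66, metastases at 7.39, 7.50, 6.86 and 7.50, and PALBO-MET at 6.57. Tumours 1 and 2 (6.65 and 6.56) and PALBO-MET were the lowest of all, and tumour 7 the highest. The order of means was treated bladder (7.53 ± 0.17, SD, n = 3), normal bladder (7.45 ± 0.44, SD, n = 5), metastasis (7.31 ± 0.30, SD, n = 4) and tumour (7.19 ± 0.54, SD, n = 7), again with no neighbours apart beyond their spread.

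Pik3r1 was 0.27 lower in tumours than in normal bladder on the log2 scale (difference -0.27, 95% confidence interval -0.77 to 0.24, limma adjusted p = 0.998). Tumour 7 weighed on this value: without it the difference was -0.43 (unadjusted p = 0.0436, limma adjusted p = 0.737), in a fit where 6.69% of all genes had an unadjusted p under 0.05. Treated minus tumour was 0.35 (95% confidence interval -0.25 to 0.94, limma adjusted p = 1), and 0.52 without tumour 7 (unadjusted p = 0.0404, limma adjusted p = 1), where 1.47% of all genes had an unadjusted p under 0.05. It was 0.40 without the low-contrast arrays. Without the low-contrast arrays tumour minus normal was -0.73 (unadjusted p = 0.0866), in a fit where 3.34% of all genes had an unadjusted p under 0.05. Within the low-contrast arrays it was 0.08. Treated minus normal changed sign between 0.08 over all arrays and -0.33 without the low-contrast arrays.

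Smooth muscle markers moved with Pik3r1 on part of the arrays. The mean of 10 of 10 measured markers was 9.82 on tumour 7, 8.66 and 8.68 on normal bladders 1 and 2, 6.00 and 5.84 on tumours 1 and 2, and 4.93 on PALBO-MET. Its range was 6.76 to 8.68 in normal bladder, 5.59 to 9.82 in tumours, 6.81 to 8.43 in treated bladder and 5.63 to 6.77 in metastases. All 10 were lower on average in tumours than in normal bladder, all 10 were higher in treated bladder than in tumours, and 0 passed the test in either comparison. The 8 low-contrast arrays had smooth muscle means of 6.66 (tumour 3) to 6.93 (normal 5), with Pik3r1 at 6.80 to 7.50. The part of these markers in the Pik3r1 values was not tested. Metastases 1 and 2 had Pik3r1 at 7.39 and 7.50 with smooth muscle means of 5.63 and 5.66.

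Inpp4b, the lipid phosphatase, was at 5.38, 5.34, 5.29, 5.24 and 5.33 in normal bladder. The tumours ran from 5.16 (tumour 7) through a median of 5.30 to 5.64 (tumour 6). Treated bladders were at 5.29, 5.39 and 5.04, metastases at 5.14, 5.13, 5.38 and 5.24, and PALBO-MET at 5.48. Normal bladder spread least, and treated bladder 3 and metastases 1 and 2 were the lowest arrays. The mean over the 20 arrays, 5.31, lay inside the range of the array medians (5.11 to 5.48), at percentile 45.9 of the genes measured. Means fell from tumour (5.37 ± 0.16, SD, n = 7) over normal bladder (5.32 ± 0.05, SD, n = 5) and treated bladder (5.24 ± 0.18, SD, n = 3) to metastasis (5.23 ± 0.12, SD, n = 4), with no neighbours apart beyond their spread. Metastasis minus tumour was -0.14 (95% confidence interval -0.35 to 0.06, limma adjusted p = 0.873) and treated minus tumour -0.13 (95% confidence interval -0.36 to 0.10, limma adjusted p = 1). Without the low-contrast arrays they were -0.23 and -0.13, and within them metastasis minus tumour was -0.06.

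Akt1 and Akt2 encode kinases that the PI3K lipid product recruits, Akt1 best known for cell survival and growth and Akt2 for insulin action. Akt1 was at 6.46, 6.44, 6.77, 6.45 and 6.61 in normal bladder, and the tumours ran from 6.40 through a median of 6.48 to 6.84. Treated bladders were at 6.48, 6.45 and 6.83, metastases at 6.59, 6.89, 6.59 and 6.50, and PALBO-MET at 6.52. The highest array of each group of several arrays lay between 6.77 (normal 4) and 6.89 (metastasis 2), and the groups overlapped throughout. The Akt1 means lay between 6.55 ± 0.14 (SD, n = 5) in normal bladder and 6.64 ± 0.17 (SD, n = 4) in metastases, with treated bladder at 6.59 ± 0.21 (SD, n = 3) and tumours at 6.57 ± 0.17 (SD, n = 7). Its largest difference, metastasis minus normal, was 0.09 (95% confidence interval -0.16 to 0.35, limma adjusted p = 0.900), 0.29 without the low-contrast arrays and -0.07 within them.

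Akt2 was at 6.45, 6.52, 6.24, 6.31 and 6.34 in normal bladder, and the tumours ran from 5.89 (tumour 1) through a median of 6.29 to 6.56 (tumour 6). Treated bladders were at 6.72, 6.21 and 6.46, metastases at 6.70, 6.34, 6.45 and 6.35, and PALBO-MET at 6.16. Treated bladder 1 and metastasis 1 stood highest, and tumour 1 and PALBO-MET lowest. Treated bladder (6.46 ± 0.25, SD, n = 3) and metastasis (6.46 ± 0.17, SD, n = 4) had the same mean, followed by normal bladder (6.37 ± 0.11, SD, n = 5) and tumour (6.32 ± 0.25, SD, n = 7). Treated minus tumour was 0.14 (95% confidence interval -0.17 to 0.44, limma adjusted p = 1), and 0.30 when arrays were weighted by their quality (unadjusted p = 0.0138, limma adjusted p = 0.497). In the weighted fit 8.33% of all genes had an unadjusted p under 0.05. Metastasis minus tumour was 0.13 (95% confidence interval -0.14 to 0.41, limma adjusted p = 0.900), 0.22 without the low-contrast arrays and 0.04 within them.

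Tsc1 and Tsc2 form the complex that restrains Rheb, Tsc2 as the GTPase-activating subunit and Tsc1 as its stabiliser. Tsc1 was at 5.66, 5.62, 5.60, 5.77 and 5.75 in normal bladder, ran from 5.44 through a median of 5.65 to 5.86 in tumours, and was at 5.60, 5.67 and 5.85 in treated bladders. Metastases were at 5.61, 6.05, 5.69 and 5.63 and PALBO-MET at 5.63. Metastasis 2 was the highest array for Tsc1, as it was for Akt1. The means were 5.68 ± 0.08 (SD, n = 5) in normal bladder, 5.66 ± 0.16 (SD, n = 7) in tumours, 5.71 ± 0.13 (SD, n = 3) in treated bladder and 5.74 ± 0.21 (SD, n = 4) in metastases. Metastasis minus tumour was 0.08 (95% confidence interval -0.14 to 0.30, limma adjusted p = 0.924), 0.16 without the low-contrast arrays and 0.01 within them.

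Tsc2 was at 5.79, 5.74, 5.78, 5.71 and 5.82 in normal bladder, ran from 5.49 (tumour 1) through a median of 5.80 to 6.06 (tumour 6) in tumours, and was at 5.78, 5.71 and 5.97 in treated bladders. Metastases were at 6.11, 5.66, 5.81 and 5.80 and PALBO-MET at 5.59. The 5 normal bladders lay within 0.11 of each other, whereas tumour 1 and metastasis 1 stood at the ends of the whole range. The means were 5.77 ± 0.04 (SD, n = 5) in normal bladder, 5.78 ± 0.19 (SD, n = 7) in tumours, 5.82 ± 0.13 (SD, n = 3) in treated bladder and 5.85 ± 0.19 (SD, n = 4) in metastases. Metastasis minus normal was 0.08 (95% confidence interval -0.16 to 0.32, limma adjusted p = 0.917), 0.13 without the low-contrast arrays and 0.04 within them.

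Mtor, the kinase of both mTOR complexes, was at 6.16, 6.16, 6.23, 5.87 and 6.17 in normal bladder. It ran from 5.85 (tumour 1) through a median of 6.17 to 6.52 (tumour 6) in tumours and was at 6.16, 6.10 and 6.39 in treated bladders. Metastases were at 6.43, 5.97, 6.12 and 6.14 and PALBO-MET at 5.87. Most arrays lay close together, with tumour 6, metastasis 1 and treated bladder 3 above them and tumour 1, normal 5 and PALBO-MET below. The means were 6.12 ± 0.14 (SD, n = 5) in normal bladder, 6.16 ± 0.20 (SD, n = 7) in tumours, 6.22 ± 0.16 (SD, n = 3) in treated bladder and 6.16 ± 0.19 (SD, n = 4) in metastases. Metastasis minus tumour was 0.01 (95% confidence interval -0.24 to 0.26, limma adjusted p = 0.994), 0.01 without the low-contrast arrays and 0.02 within them, and the interval for tumour minus normal ran from -0.20 to 0.27. In Akt1, Akt2, Tsc1, Tsc2 and Mtor alike, no neighbours in the order of group means differed beyond their spread.

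Although the groups did not separate, Mtor and Tsc2 moved together from array to array. Over the 20 arrays, which were normalised together, Pearson's r was 0.91 and Spearman's rho 0.79; r was 0.96 over the 12 other arrays, 0.56 over the 8 low-contrast arrays and 0.86 without the 2 arrays farthest from the median of Mtor. Among 18107 genes compared, Tsc2 was the second most alike to Mtor by r, and Mtor the second most alike to Tsc2. Tsc1, the partner of Tsc2, had r values of 0.06 with Tsc2 and 0.04 with Mtor. Of the 36 pairs of members, 5 had an r of at least 0.6; the other 4 were Akt2 with Tsc2 (0.74), with Mtor (0.65), with Pik3r1 (0.63) and with Pik3ca (0.60). The r of Akt2 with Pik3ca was -0.74 within the low-contrast arrays. Inpp4b had an r below 0 with all 8 other members, from -0.40 to -0.04, but within the low-contrast arrays 5 of these 8 were above 0, up to 0.83 with Akt2. These correlations are descriptions of the arrays and were given no p.

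**Figure D3:**
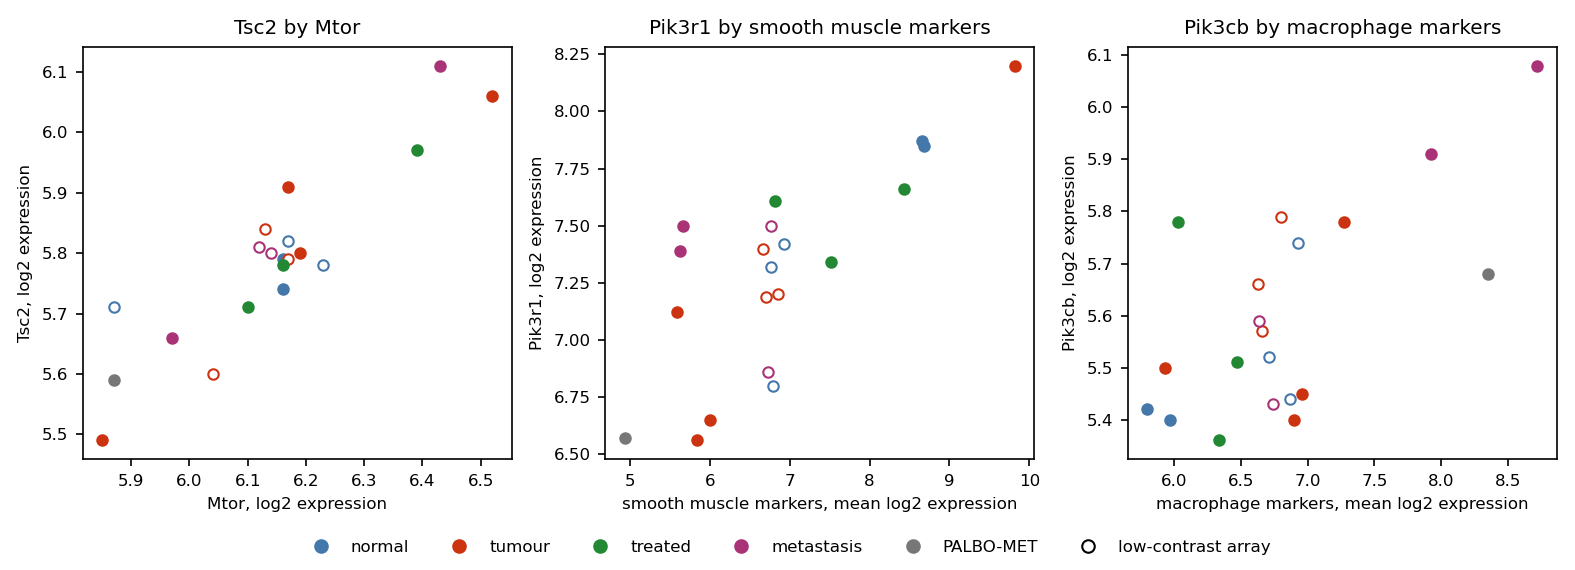
Log2 expression on each of the 20 arrays, coloured by group, with open points for the low-contrast arrays: Tsc2 against Mtor, Pik3r1 against the mean of the smooth muscle markers, and Pik3cb against the mean of the macrophage markers. Tumour 1 lies at the low end and tumour 6 and metastasis 1 at the high end of the Mtor and Tsc2 points. Tumour 7 is highest for Pik3r1 and smooth muscle, and metastases 1 and 2 are highest for Pik3cb.

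The promoters of the members are shown where they share a stretch of letters with Mtor and Tsc2. The 250 bases before each RefSeq start of a gene (build GRCm38.p6) were searched on both strands for CCGGAAGT, whose reverse complement is ACTTCCGG. This is a longer form of the GGAA core of sites bound by ETS-family factors, and other forms were not counted. The motif was chosen after the sequences had been read. The 9 members had 14 such windows, since some have several starts. It was in 3 of the 14, 1 each of Mtor, Tsc2 and Pik3ca, and in 2.88% of all 32851 windows of this length. By gene it was in 3 of the 9 members and in 3.23% of 27025 genes. Because the motif was picked from these same sequences, the members' counts beside these shares are no test of enrichment. Capitals mark the match in each sequence, written 5′ to 3′ on the gene's own strand.
Mtor (chr4:148448332-148448581, plus strand): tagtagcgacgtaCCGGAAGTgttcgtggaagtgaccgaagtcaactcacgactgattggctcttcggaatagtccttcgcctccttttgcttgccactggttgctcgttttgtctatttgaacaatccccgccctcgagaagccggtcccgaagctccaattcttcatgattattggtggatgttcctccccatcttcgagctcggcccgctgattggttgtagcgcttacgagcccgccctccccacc
Tsc2 (chr17:24632628-24632877, minus strand): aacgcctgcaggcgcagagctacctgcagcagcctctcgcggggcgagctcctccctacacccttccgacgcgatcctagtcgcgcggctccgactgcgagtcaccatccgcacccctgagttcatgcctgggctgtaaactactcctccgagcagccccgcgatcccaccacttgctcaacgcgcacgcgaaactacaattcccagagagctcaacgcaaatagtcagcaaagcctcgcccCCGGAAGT
Pik3ca (chr3:32396815-32397064, plus strand): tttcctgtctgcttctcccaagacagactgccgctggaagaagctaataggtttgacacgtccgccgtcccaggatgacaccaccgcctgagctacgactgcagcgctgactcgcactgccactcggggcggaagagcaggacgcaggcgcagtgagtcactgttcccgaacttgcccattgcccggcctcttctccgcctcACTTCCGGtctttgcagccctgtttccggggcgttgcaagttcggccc
The match lay 237 to 230 bases before the start in Mtor, 8 to 1 bases before it in Tsc2, and 48 to 41 bases before it, on the other strand, in Pik3ca. A match describes letters in a window and is not a bound site. Pik3ca had an r of 0.58 with Mtor and 0.56 with Tsc2 over the 20 arrays, and -0.37 and -0.56 within the low-contrast arrays.

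The genes most alike to each member across the 20 arrays were mostly outside the pathway. Pik3ca was most like Rspry1 (r = 0.905) and Crebbp (r = 0.902), a histone acetyltransferase. For Pik3cb they were Rmc1 (0.891) and Cog2 (0.870), a subunit of a Golgi tethering complex. Pik3r1 was most like R3hdm2 (0.886) and Mgp (0.883), a matrix protein made in vascular smooth muscle and cartilage. Akt1 was most like Arf2 (0.883) and Bcar1 (0.875), an adhesion scaffold protein. Akt2 was most like Idh3g (0.894) and Ndufv2 (0.886), both of mitochondrial energy metabolism, yet within the low-contrast arrays these r values were -0.05 and 0.35. Mtor was most like Ints13 (0.917), a subunit of the Integrator complex, and Tsc2 like Immt (0.918), a protein of the mitochondrial inner membrane. Tsc1 was most like Xab2 (0.845) and Atg2a (0.830), and Inpp4b like Prkd1 (0.840) and Sycp2 (0.781). Each r is the first or second highest of 18107 for that member and carries no p.

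Other genes of the pathway were read from 11 lists with 129 distinct genes, of which 118 were measured. In every comparison 0 of the 118 passed limma's test at an adjusted p under 0.05. Their median log2 difference was 0.016 between tumour and normal bladder, 0.035 between treated and tumour bladder and 0.079 between metastasis and tumour, beside 0.012, -0.023 and -0.026 over all genes. At an unadjusted p under 0.05 there were 3 (2.54% of 118, against 4.25% of all genes) for tumour against normal, all lower in tumours. There were 0 for treated against tumour and 0 for treated against normal. For metastasis against tumour there were 11, all higher in metastases (9.32%, against 5.79% of all genes), and for metastasis against normal 10 (8.47%, against 6.91%), 8 of them higher. The comparisons share tumour or normal arrays.

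Upstream of Akt, the adaptor Gab2, which links receptors to PI3K, had the smallest p of the pathway genes in metastasis against tumour. It was at 6.80 ± 0.21 (SD, n = 4) in metastases and 6.17 ± 0.26 (SD, n = 7) in tumours, a log2 difference of 0.63 (SE 0.16, unadjusted p = 0.00109, limma adjusted p = 0.841). The lowest metastasis, 6.59, overlapped the highest tumour, 6.60, and the difference was 0.85 without the low-contrast arrays and 0.39 within them. Pdpk1, the kinase that activates Akt, was at 6.45 ± 0.11 (SD, n = 5) in normal bladder, 6.19 ± 0.19 (SD, n = 7) in tumours and 6.49 ± 0.20 (SD, n = 4) in metastases. Its differences were -0.26 for tumour minus normal (limma adjusted p = 0.998) and 0.30 for metastasis minus tumour (limma adjusted p = 0.847), similar on both kinds of array (-0.24 and -0.32, then 0.31 and 0.32). The growth factor receptor gene Igf1r was at 5.58 ± 0.14 (SD, n = 4) in metastases and 6.09 ± 0.38 (SD, n = 5) in normal bladder, and the ligand gene Igf2 at 5.31 ± 0.14 and 5.65 ± 0.15 in the same groups. Both had a limma adjusted p of 0.720. The Igf1r difference of -0.51 was -0.96 without the low-contrast arrays and -0.18 within them, and that of Igf2, -0.34, was -0.60 and -0.12.

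Among the other PI3K subunits and the phosphatases, 0 of 8 and 0 of 9 measured genes passed in each comparison. Inpp5d (SHIP1), a lipid phosphatase of blood cells, was at 6.17 ± 0.65 (SD, n = 4) in metastases and 5.32 ± 0.30 (SD, n = 5) in normal bladder. The difference of 0.85 (SE 0.24, limma adjusted p = 0.717) was 1.71 without the low-contrast arrays and 0.10 within them. Pik3cg, the catalytic subunit of leukocytes, was at 5.70 ± 0.32 and 5.35 ± 0.18 in the same groups (difference 0.34, limma adjusted p = 0.720; 0.62 without the low-contrast arrays and 0.12 within them). Of the 4 metastases, 1 and 2 had the highest macrophage means, as given above. On the low-contrast arrays these means did not set the groups apart. The part of macrophage markers in these values was not tested. Phlpp2, a phosphatase that acts on Akt itself, was at 5.46 ± 0.08 (SD, n = 4) in metastases and 5.24 ± 0.10 (SD, n = 7) in tumours (difference 0.22, limma adjusted p = 0.841), with 0.23 and 0.22 on the 2 kinds of array.

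Around mTOR, 0 of 9 measured complex subunits and inhibitors and 0 of 3 genes of the TSC and Rheb list passed in any comparison, nor did either list have a gene with an unadjusted p under 0.05. Deptor, an inhibitor of mTOR, was at 6.49 ± 0.39 (SD, n = 7) in tumours and 6.81 ± 0.38 (SD, n = 5) in normal bladder (difference -0.32, limma adjusted p = 0.998). It was -0.73 without the low-contrast arrays and 0.00 within them, to 2 decimals. Rheb was at 6.24 ± 0.18 and 6.36 ± 0.11 in the same groups (difference -0.12, limma adjusted p = 0.998; -0.09 without the low-contrast arrays and -0.16 within them). Among 23 genes of nutrient and energy input, Lamtor1, part of the complex that holds mTORC1 at the lysosome, was at 6.29 ± 0.17 (SD, n = 4) in metastases and 5.99 ± 0.10 (SD, n = 7) in tumours (difference 0.30, limma adjusted p = 0.841; 0.42 without the low-contrast arrays and 0.18 within them). Ddit4 (REDD1), a stress-induced inhibitor of mTORC1, was at 5.55 ± 0.13 (SD, n = 4) in metastases and 5.16 ± 0.09 (SD, n = 5) in normal bladder. Its difference of 0.39 had a limma adjusted p of 0.720, although the metastases (5.46 to 5.73) did not overlap normal bladder (5.07 to 5.29), as held for 2.85% of all genes. It was 0.53 without the low-contrast arrays and 0.27 within them. Ddit4 was not alone in this: in the same groups Igf1r (5.40 to 5.72 against 5.73 to 6.56) and Igf2 (5.19 to 5.47 against 5.54 to 5.89) did not overlap either. The same held for Trim63, a gene of the FoxO list (5.19 to 5.33 against 5.49 to 5.96), and the Akt substrate Tbc1d4 (5.96 to 6.49 against 5.82 to 5.95). Phlpp2 did not overlap between metastases (5.40 to 5.57) and tumours (5.09 to 5.39), where 0.504% of all genes did not. Ranges were read only for the genes of each list with the smallest p, and the share over the pathway genes was not counted.

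Genes downstream of the pathway gave the same counts of 0 at an adjusted p under 0.05. Of 9 measured mTORC1 substrates and translation factors, Eif4ebp1, which restrains cap-dependent translation, was at 7.52 ± 0.33 (SD, n = 7) in tumours and 7.36 ± 0.30 (SD, n = 5) in normal bladder (difference 0.16, limma adjusted p = 0.998). That difference was 0.41 without the low-contrast arrays and changed sign within them, to -0.05. Of 10 Akt substrates, 9 were higher on average in metastases than in tumours. Among them Tbc1d4, which controls glucose transporter traffic, was at 6.14 ± 0.25 (SD, n = 4) and 5.86 ± 0.16 (SD, n = 7) (difference 0.29, limma adjusted p = 0.843), 0.37 without the low-contrast arrays and 0.20 within them. Of 20 genes induced by FoxO factors, which Akt keeps out of the nucleus, 14 were lower on average in tumours than in normal bladder and 14 were higher in metastases than in tumours. Klf6 was at 7.70 ± 0.76 (SD, n = 4) in metastases and 6.57 ± 0.61 (SD, n = 7) in tumours (difference 1.13, SE 0.36, limma adjusted p = 0.841), 1.53 without the low-contrast arrays and 0.79 within them. All 10 measured genes of sterol and lipid synthesis were higher on average in treated bladder than in tumours, with a median difference of 0.14, and 0 of the 10 had an unadjusted p under 0.05. Scd1, a fatty acid desaturase, led them with 7.53 ± 0.82 (SD, n = 3) against 6.83 ± 0.52 (SD, n = 7), a difference of 0.70 (SE 0.37, limma adjusted p = 1), and 0.81 without the low-contrast arrays. Markers of some other cell types moved with this list, and those of others moved against it. In the same comparison 13 of 13 urothelial markers (list means 5.73 to 9.52 in tumours, 7.15 to 8.47 in treated bladder), 10 of 10 smooth muscle markers and 6 of 6 skeletal muscle markers (5.65 to 6.78 and 5.27 to 8.95) were higher on average in treated bladder. The skeletal muscle mean was 8.95 on treated bladder 1 but 5.31 and 5.27 on treated bladders 2 and 3. Lower on average in treated bladder were 9 of 9 macrophage, 7 of 7 neutrophil and 5 of 5 T cell markers. So were 3 of 3 B cell markers and 5 of 5 markers of proliferating cells. None of the markers passed the test, and their part in the list's direction was not tested. All 10 genes of amino acid and one-carbon metabolism downstream of ATF4 were higher on average in tumours than in normal bladder, with a median of 0.12 and 0 at an unadjusted p under 0.05. In that comparison 5 of 5 markers of proliferating cells (list means 4.77 to 5.69 in normal bladder, 5.09 to 6.75 in tumours), 7 of 7 neutrophil markers (5.10 to 6.63 and 5.75 to 8.75) and 9 of 9 macrophage markers were also higher on average in tumours. Smooth muscle markers were lower in 10 of 10. None passed, and their part in the list's direction was not tested. Slc7a5, the large neutral amino acid transporter, was at 6.19 ± 0.32 (SD, n = 4) in metastases and 5.78 ± 0.13 (SD, n = 5) in normal bladder (difference 0.40, limma adjusted p = 0.720), 0.69 without the low-contrast arrays and 0.14 within them. A list's shared direction was given no test.

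**Figure D4:**
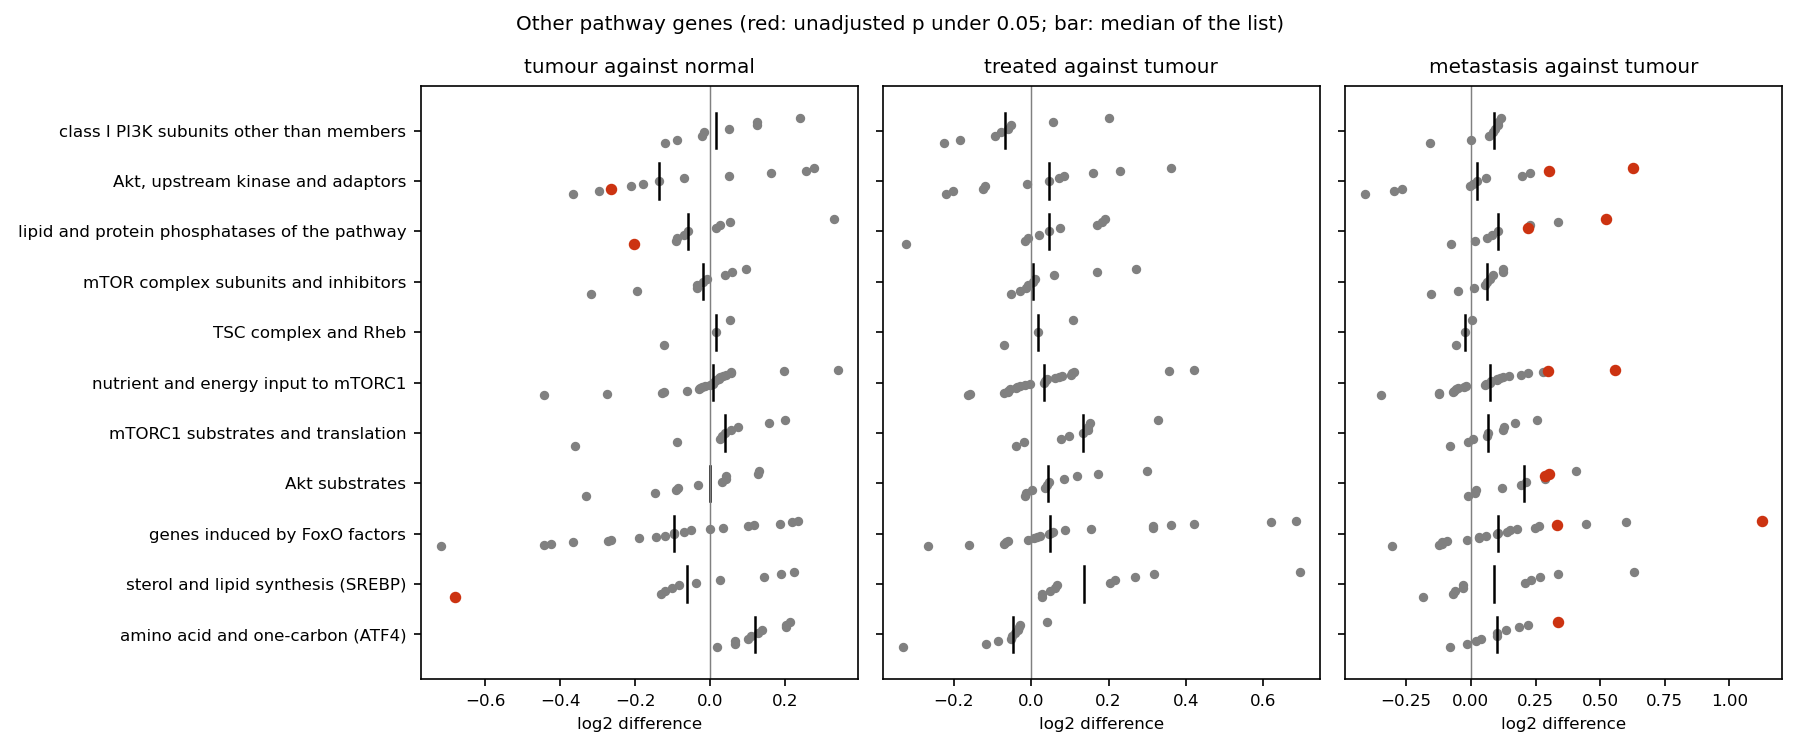
Log2 difference (x axis) of each measured gene of the 11 pathway lists (y axis) in 3 of the comparisons. Points are genes, bars the median of a list and red points genes with an unadjusted p under 0.05. Red points number 3 in tumour against normal, 0 in treated against tumour and 11 in metastasis against tumour, where all lie above 0.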

How the data were processed

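RNA of 20 samples, isolated with an FFPE (fixed tissue) kit per the labels, was hybridised to Affymetrix arrays. The deposited log2 values come from RMA, run by the authors in Affymetrix Expression Console per the submitters' processing notes, without versions. The base of 2 is that of RMA and is not written in the file. Each array had 96 to 222 values above 16. Whether the low-contrast arrays were processed differently is not given in the sources used here. Precision is limited by the number of arrays.

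Of 65956 rows, 30604 carried 1 gene symbol, several (2146) or none (33206) being left out. After 827 older symbols were updated by gene identifier and the brightest row of a gene was kept, 30142 genes remained. Groups came from the titles. A linear model with 5 groups was fitted in limma 3.58.1 (R 4.3.3) and tested on simulated data; 5 comparisons were tested 2-sided with Benjamini-Hochberg adjustment over all genes at 0.05. PALBO-MET was not tested as a group. A 2-sided exact permutation test over arrays was run beside it. Low-contrast arrays had an SD above 0.30 over rows of mean 4.5 to 5.0 and a highest correlation with any array below 0.25 over rows of mean at least 7. Likeness was ranked over 18107 genes, with predicted genes, small RNAs and olfactory and vomeronasal receptors left out by their symbols.

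Members, lists, the low-contrast set and tests were chosen with earlier results of these data known. Genes named in each pathway list are the 2 with the smallest p in a comparison; the text gives part of these. Alternatives were a fit on 2 groups, array weights, another variance prior, a filter on dim genes (19898 left), quantile normalisation, median centring, the mean of a gene's rows, a replicate block, PALBO-MET as a metastasis, the low-contrast set left out, alone or as a term, and each array left out. Promoters came from RefSeq (GRCm38.p6). Some engineered genes are not reported here. Pathway genes without a row of their own were not analysed here.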

Additional observations from a re-analysis of the deposited data

Results flagged for a closer look

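A lone array stood apart from its group in 2 of 27 gene and group pairs tested by Dixon's criterion, where chance gives about 1 in 20. Pik3r1 was at 6.86 on metastasis 3, with the other metastases at 7.39, 7.50 and 7.50. Its gap over the range, 0.829, equalled the critical value of 0.829 to 3 decimals, so it lay on the threshold. Mtor was at 5.87 on normal bladder 5, with the other normal bladders at 6.16, 6.16, 6.23 and 6.17. Both arrays are low-contrast arrays.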

How the results depend on the processing

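Over 990 alternative values of the 45 member differences, 0 had an adjusted p under 0.05 in limma or the exact permutation test. The smallest was a limma adjusted p of 0.292, for Pik3cb in metastasis against normal with array weights. Of the 990, 913 kept the sign and 77 reversed it, and 34 of the 45 differences reversed at least once. Some of the 913 could not reverse, because their setting leaves a member's difference as in the main fit. Such settings were the 2-group fit, the variance prior, the dim-gene filter, the mean of rows and the permutation test. Counts of genes passing stayed at 0 in every comparison except 3 without the low-contrast arrays in metastasis against tumour, 3 so in metastasis against normal (Ahsg, Ctsk and Lyz1 in both) and 1 in metastasis against normal fitted on the 2 groups (Gm3534). Without the low-contrast arrays there are fewer samples, and the cause of the other changes was not tested. Whether same-numbered arrays came from the same animal is not given in the sources used here. Deviations from the group means correlated at -0.58 to 0.52 between same-numbered arrays. Pairs with unlike numbers were not set beside them, so this does not settle the pairing. The fit with the replicate numbers as a block also passed 0 genes in each comparison. Log2 differences that reversed follow. With PALBO-MET counted as a metastasis they were Mtor -0.014 in metastasis against normal, and Mtor -0.051 and Pik3r1 -0.024 in metastasis against tumour. With array weights they were Akt1 -0.073 and Tsc1 -0.039 in treated against tumour, and Mtor -0.011 in metastasis against normal, and Mtor -0.028 in metastasis against tumour, and Pik3r1 -0.045 and Tsc1 -0.032 in treated against normal, and Tsc1 0.0073 in tumour against normal. With arrays centred on their medians they were Pik3ca 0.0058 in metastasis against normal, and Pik3cb 0.013 in treated against tumour. With quantile normalisation they were Akt1 -0.024 in treated against tumour. With the replicate number as a block they were Akt1 -0.011 in treated against tumour, and Pik3ca 0.021 in metastasis against normal, and Pik3ca 0.025 in treated against normal, and Tsc2 -0.0098 in tumour against normal. With a term for the low-contrast arrays they were Akt1 -0.00036 and Pik3ca -0.0038 in treated against tumour, and Pik3r1 -0.05 in treated against normal. Within the low-contrast arrays they were Akt1 -0.065, Inpp4b 0.024, Pik3cb -0.051 and Tsc1 -0.052 in metastasis against normal, and Akt1 -0.11, Akt2 0.064, Pik3r1 0.08 and Tsc2 -0.029 in tumour against normal, and Pik3cb -0.16 and Pik3r1 -0.082 in metastasis against tumour. Without the low-contrast arrays they were Akt1 -0.027 and Pik3cb 0.013 in treated against tumour, and Akt2 -0.023 and Pik3r1 -0.33 in treated against normal, and Tsc1 0.034 in tumour against normal. Leaving out 1 array at a time gave, as lowest to highest, Akt1 -0.0081 to 0.12, Mtor -0.079 to 0.074, Tsc1 -0.022 to 0.13 and Tsc2 -0.024 to 0.13 in metastasis against tumour. The ranges were Akt1 -0.08 to 0.11, Akt2 -0.034 to 0.22, Inpp4b -0.15 to 0.024, Pik3ca -0.17 to 0.053, Pik3cb -0.07 to 0.14, Pik3r1 -0.081 to 0.19, Tsc1 -0.044 to 0.082 and Tsc2 -0.017 to 0.11 in treated against normal. The ranges were Akt1 -0.1 to 0.089, Mtor -0.028 to 0.12, Pik3ca -0.043 to 0.18, Pik3cb -0.16 to 0.05, Tsc1 -0.026 to 0.1 and Tsc2 -0.032 to 0.094 in treated against tumour. The ranges were Akt1 -0.026 to 0.077, Akt2 -0.086 to 0.026, Mtor -0.025 to 0.087, Tsc1 -0.051 to 0.018 and Tsc2 -0.031 to 0.064 in tumour against normal. The ranges were Mtor -0.043 to 0.11, Pik3ca -0.087 to 0.011, Pik3r1 -0.3 to 0.0099, Tsc1 -0.04 to 0.11 and Tsc2 -0.0092 to 0.14 in metastasis against normal. Of the pathway genes named with an unadjusted p under 0.05, Inpp5d reversed, to -0.13 in metastasis against tumour within the low-contrast arrays.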
